A study of Eublepharis macularius with 4 samples.

Results

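Dental epithelial cells at a stage before enamel secretion were sought in single-cell data of the adult leopard gecko jaw by the transcripts they carry. A cell was selected when it held at least 3 UMIs (unique molecular identifiers, each counting 1 captured transcript) summed over SP6, DLX3, IRX1, ISL1 and FOXI3, with at least 2 of these 5 transcription factor genes detected. It also had to hold at least 200 detected genes and at least 3 UMIs of LOC129339097, a locus used here as the mark of epithelium. Cells with 3 or more UMIs of AMELX, 3 or more of MUC22, TGM4 and MALL together, or 5 or more of COL1A1, COL1A2, DCN and LUM together were left out. These limits selected 60 of 8531 cells, which are called the selected cells. They were compared with the 2554 other cells that held at least 10 UMIs of LOC129339097, called the other epithelial cells.

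The tissue was soft tissue of gecko jaws (Eublepharis macularius) with unerupted teeth and the dental lamina. There were 4 libraries from 2 adult animals, with 2 libraries labelled as biological replicates for each animal. Tissue of LG252 was digested at 37 °C for 4 to 5 h in a mix of dispase II (2.4 U/ml) and collagenase D (1.5 U/ml), and tissue of LG255 at 4 °C for 6 h with a Bacillus protease at 10 mg/ml. Live cells of both were sorted by exclusion of propidium iodide and sequenced with 10x Genomics 3′ chemistry. Strain, sex and age beyond adult were not given in the labels, and no group carried a transgene or an experimental treatment. The effect of the animal and that of its digestion cannot be told apart. The labels do not say whether the libraries of an animal came from separate pieces of tissue, so p-values may measure a technical spread.

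In toothed vertebrates the dental lamina, a strip of epithelium that grows down from the oral surface, gives rise to tooth buds and, in species that replace their teeth, to each new generation. The inner layer of the bud later becomes the ameloblasts, which secrete enamel proteins such as amelogenin, the product of AMELX. Before that stage the epithelium is known, mostly from mice, for homeobox factors of the DLX, MSX and IRX families and for signalling centres, the enamel knots, that release hedgehog, WNT, BMP and FGF signals.

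The selected cells were few in every library. They numbered 6 in LG252 replicate 1, 39 in LG252 replicate 2, 5 in LG255 replicate 1 and 10 in LG255 replicate 2. As a share of selected and other epithelial cells together, this was 1.03% (95% exact binomial interval 0.379 to 2.23%), 5.89% (4.22 to 7.97%), 1.07% (0.349 to 2.49%) and 1.11% (0.532 to 2.03%). LG252 replicate 2 stood above the other 3 libraries, which overlapped within counting error. The mean share of LG252 was 3.46% ± 3.44 (SD, n = 2). That of LG255 was 1.09% ± 0.0244 (SD, n = 2). The difference of 2.37 percentage points did not pass an exact two-sided permutation test (p = 1, with 0.33 the smallest p that 2 libraries against 2 allow). Without LG252 replicate 2 the difference was -0.061 percentage points.

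The selected cells held summed totals of 90200, 468266, 46659 and 79533 UMIs in the same order of libraries, so values of the smallest sums rest on few transcripts. Their median depth was 14448, 10703, 9528 and 7668 UMIs per cell, against 11994, 8283, 6997 and 9113 in the other epithelial cells. It was higher than in the other epithelial cells in 3 of the 4 libraries, and a sum of 3 marker UMIs is easier to reach in a deeper cell. When every cell was thinned to 2000 UMIs, the same limits selected 0, 4, 0 and 0 cells. None of the selected cells was among the doublet calls, and none held more than 20% mitochondrial UMIs. Pairs of libraries shared between 2 and 8 cell barcodes, and no selected barcode was selected in more than 1 library.

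The 6 selected cells of LG252 replicate 1 stood apart from the rest. Of 53 genes called higher in the selected cells below, 36 had 0 UMIs in them. Results are therefore given by library and with that library left out.

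The markers chose the cells, so their values are a description only. ISL1, a LIM homeobox factor, was detected in 48 of the 60 cells and gave 39.1% of the 258 marker UMIs. IRX1, a homeobox factor of the Iroquois family, was detected in 44 cells and gave 37.6%. DLX3, a distal-less homeobox factor, was detected in 26 cells. SP6, known as epiprofin and needed for ameloblast formation in mice, was detected in 8 cells, and FOXI3, a forkhead factor of early tooth and hair epithelium in mice, in 7. The pair most often seen in 1 cell was IRX1 with ISL1, in 35 cells, of which 27 were from LG252 replicate 2.

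The libraries reached the limits through different markers. SP6 measured 0 and 4.27 CPM (UMIs of a gene per 1000000 UMIs of the summed cells) in LG252 and 214 and 37.7 CPM in LG255. ISL1 measured 211, 143, 64.3 and 151 CPM in the selected cells across the 4 libraries. IRX1 measured 33.3, 179, 21.4 and 113 CPM. SP6 with DLX3 was detected in 4 cells, all from LG255. ISL1 was the least selective marker, with at least 1 UMI in 20.3% of the other epithelial cells and 0.350% of immune cells (cells with no UMI of LOC129339097 and at least 2 of PTPRC, with a median depth of 2522 to 5283 UMIs by library). IRX1 had a UMI in 5.01% of the other epithelial cells, DLX3 in 2.74%, SP6 in 1.76% and FOXI3 in 0.940%.

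**Figure D1:**
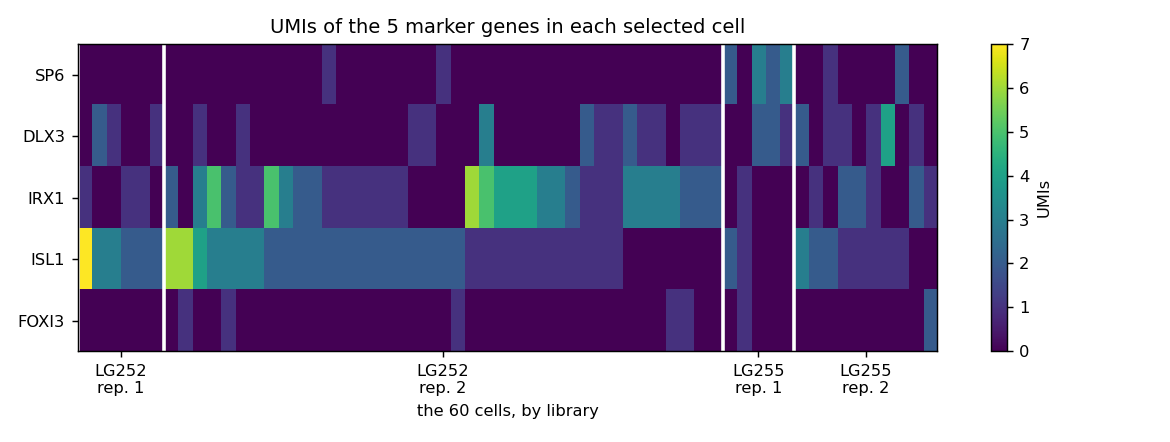
UMIs of SP6, DLX3, IRX1, ISL1 and FOXI3 (rows, colour scale in UMIs) in each of the 60 selected cells (columns, grouped by library with white lines between). ISL1 and IRX1 fill most columns of LG252, while SP6 is seen in 4 of the 5 cells of LG255 replicate 1.

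Just inside the limit, 24 of the 60 cells held exactly 3 marker UMIs, and 36 held 4 or more, with 9 the highest sum. Just outside it, 34 cells met every other limit with 2 UMIs from 2 of the genes, and 53 held 3 or more UMIs of 1 gene alone. The limit on oral genes removed 8 further cells, that on collagen genes 15, and that on LOC129339097 5.

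The label, dental epithelium before enamel secretion, was checked against markers that were not all used by the limits. AMELX, which the limits capped, had 0 UMIs in the selected cells. This says little of them, since 36 of all 8531 cells held any AMELX UMI, and 5 of these, all from LG255, held 4434 of the 4465 UMIs in the files. AMBN, ENAM, MMP20 and AMTN, which encode enamel matrix proteins and an enamel protease, also had 0 UMIs in the selected cells, but they had only 5, 31, 19 and 3 UMIs in all cells. At this depth a count of 0 for these 4 genes does not set the selected cells apart. Of the other measured genes on the enamel list, FAM83H had 26 UMIs in the selected cells, ITGB6 16, WDR72 1 and SLC24A4 0, and neither of the 2 that could be tested was called by edgeR or limma voom, with 0 at an unadjusted p under 0.05. The 9 measured genes together, led by FAM83H and ITGB6, gave 22.2, 72.6, 42.9 and 62.9 CPM in the selected cells and 45.0, 59.0, 68.7 and 49.7 CPM in the other epithelial cells, which was higher in 2 libraries and lower in 2. Enamel genes thus did not separate the selected cells from the other epithelial cells. Only 2 of the 5 cells rich in AMELX also met an epithelial limit and could serve as a comparison, both from LG255 replicate 2, so no test was made against them.

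Markers of other cell types differed by type. The 8 immune genes on a list of markers summed to 11.1, 40.6, 0 and 0 CPM in the selected cells, against 174, 61.0, 4.06 and 19.9 CPM in the other epithelial cells. The 5 endothelial genes had 1 UMI in all, and the genes of chemosensory cells, melanocytes and glia had 0. The 12 mesenchymal genes, 4 of which the limits capped, summed to 0, 154, 214 and 201 CPM, against 53.5, 442, 76.2 and 56.3 CPM. The mesenchymal sum was thus higher than in the other epithelial cells in both LG255 libraries and lower in both LG252 libraries; its part in the results below was not tested.

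Basal epithelial genes were present. The sum of the 8 measured genes was 1741, 1973, 1457 and 1094 CPM in the selected cells and 1017, 1218, 901 and 563 CPM in the other epithelial cells. COL17A1, a collagen of the junction with the basement membrane, measured 1086, 946, 321 and 151 CPM against 554, 675, 191 and 122 CPM. It was higher in 4 of 4 libraries, but scaled by TMM, a normalization on the ratios of most genes, the log2 difference was 0.14 ± 0.33 (SE, adjusted p = 0.929, edgeR). None of the 8 genes was called by edgeR or by limma voom, and 0 had an unadjusted edgeR p under 0.05. For these and the enamel genes above, the count over all genes is given with the test below.

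The comparison of the selected cells with the other epithelial cells asked which transcripts, other than the 14 genes used by the limits, accompany the markers. UMIs were summed per library and cell set and tested with edgeR's quasi-likelihood test, with the library as a block and Benjamini-Hochberg adjustment over 10889 genes. At an adjusted p under 0.05, 288 genes (2.64%) were called, 53 higher (0.487%) and 235 lower (2.16%) in the selected cells. An unadjusted edgeR p under 0.05 was found for 1344 of the 10889 genes. The median log2 difference over all tested genes was -0.23. Without LG252 replicate 1, 228 genes were called, 51 higher and 177 lower, and 202 of the 288 were among them. Of the 53 higher genes, 11 were above the other epithelial cells in 4 of 4 libraries, and of the 235 lower genes 191 were below them in 4 of 4. Directions by library, here and elsewhere, were read from CPM without the TMM scaling of the test. A small difference in CPM in 1 library may therefore have another direction on the fitted scale. The calls depended on the test: limma voom, added after seeing the data, called 348 genes, 191 higher and 157 lower, with 47 of the 53 among the higher ones. Of all 288 genes, limma voom called 181. DESeq2, which left 9922 genes without an adjusted p, called 92 genes, 3 of them higher, and edgeR without the library block called 2. The DESeq2 calls included 64 of the 288.

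**Figure D2:**
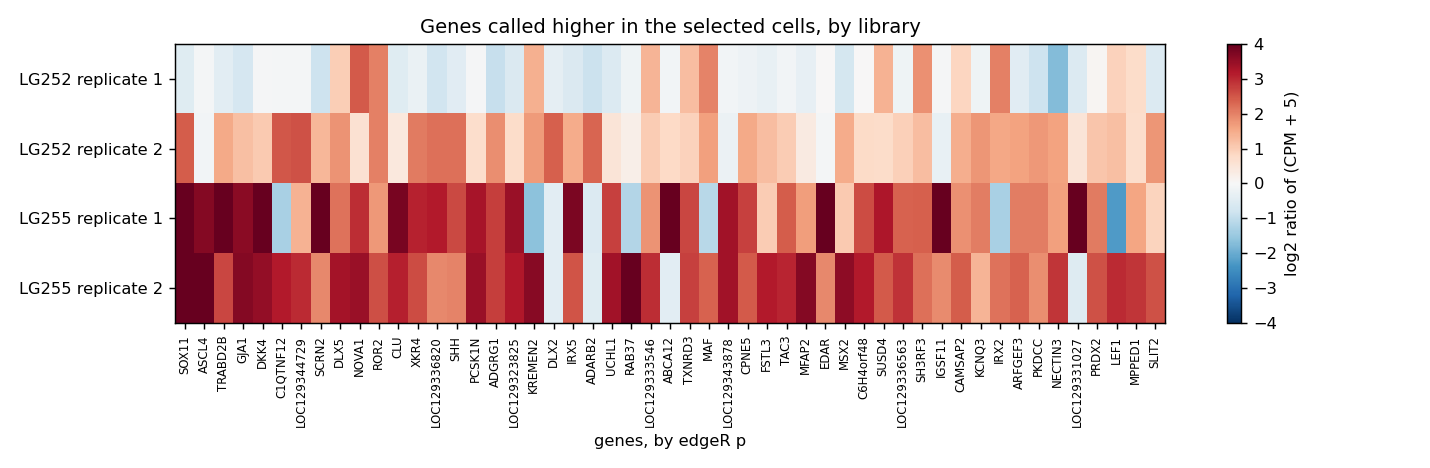
Log2 ratio of (CPM + 5) in the selected cells to (CPM + 5) in the other epithelial cells (colour) for 51 of the genes called higher (columns, ordered by edgeR p), in each library (rows). The row of LG252 replicate 1 is near or below 0 for most genes, and 10 of the genes shown are raised in all 4 rows.

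Among transcription factors known from tooth development, 6 of 26 tested genes were higher, DLX2, DLX5, MSX2, LEF1, IRX2 and IRX5, against 0.487% of all genes. KLF5, a factor of stratified epithelium, was lower. The median of the 26 was -0.18 on the log2 scale, near that of all genes. Without LG252 replicate 1 the counts were 4 higher and 2 lower, and without LG252 replicate 2 they were 2 higher and 3 lower. Limma voom called 4 higher and 0 lower. The counts were also 4 higher and 0 lower when the comparison set was kept to the upper limits of the selected cells. In thinned cells 2 of 23 tested genes were higher and 0 were lower, so the count of 6 depended on the setting.

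DLX5, a distal-less homeobox factor of the early jaw and tooth, measured 11.1, 53.4, 129 and 239 CPM in the selected cells and 3.18, 11.9, 24.6 and 19.5 CPM in the other epithelial cells. It was higher in 4 of 4 libraries, with a log2 difference of 2.14 ± 0.41 (SE, edgeR adjusted p = 4.36e-05), and it passed with each library left out. In LG252 replicate 1 the value of DLX5 rested on 1 UMI in 1 cell. At least 1 UMI was found in 40.0% of the selected cells, 7.09% of the other epithelial cells and 0.350% of immune cells, which should lack it. The immune cells numbered 1004, 122, 12 and 6 by library, so their share says little of background in LG255. With all cells thinned to 2000 UMIs, the shares of the first 2 sets were 20% and 2.36%.

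DLX2, its family member on another chromosome, followed a different pattern. All 44 of its UMIs in selected cells came from LG252 replicate 2, where it measured 94.0 CPM against 13.7 CPM. The other 3 libraries had 0 UMIs of DLX2 in the selected cells, so its log2 difference of 2.28 ± 0.51 (edgeR adjusted p = 0.000795) rests on 1 library. DLX genes lie in pairs in the genome, and the partner of a measured gene was low. DLX1, next to DLX2 on chromosome 2 of the assembly MPM_Emac_v1.0 (199426084 to 199428693 and 199442300 to 199446096), had 0 UMIs in both cell sets. DLX6, next to DLX5 on chromosome 11 (59959673 to 59965322 and 59945204 to 59949421), had 6 UMIs in selected cells and was too low to be tested. DLX4, next to the marker DLX3 on chromosome 12, had 1 UMI.

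The Iroquois factors were likewise unequal. IRX2, the neighbour of the marker IRX1 on chromosome 7 (14123089 to 14130310), measured 33.3, 85.4, 0 and 37.7 CPM against 4.50, 25.9, 7.24 and 4.51 CPM. Higher values were seen in 3 of 4 libraries, by a log2 of 1.65 ± 0.49 (edgeR adjusted p = 0.0339). IRX5, on chromosome 16 (41720246 to 41753965), measured 0, 27.8, 107 and 50.3 CPM against 2.38, 6.78, 3.19 and 4.75 CPM, a log2 difference of 2.38 ± 0.55 (edgeR adjusted p = 0.00141). IRX3, its neighbour, was not called (log2 1.24 ± 0.70, edgeR adjusted p = 0.489), and IRX4, on chromosome 7, had 0 UMIs in the selected cells.

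MSX2, a homeobox factor downstream of BMP signals in mouse teeth, measured 11.1, 107, 21.4 and 151 CPM against 21.5, 35.3, 7.82 and 8.17 CPM. In 3 of 4 libraries it was higher, with a log2 difference of 1.58 ± 0.43 (edgeR adjusted p = 0.0134). LEF1, which carries WNT signals to DNA, measured 11.1, 19.2, 0 and 151 CPM against 3.58, 5.43, 18.8 and 14.9 CPM (log2 1.59 ± 0.49, edgeR adjusted p = 0.0436). LEF1 and IRX2 lost their calls when LG252 replicate 1, LG252 replicate 2 or LG255 replicate 2 was left out. MSX2 lost its call without LG252 replicate 2 or LG255 replicate 2, and IRX5 without LG255 replicate 1.

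SOX11 had the smallest p of the genes called higher; it lay outside the rule for named genes, since it was not raised in every library, and is named after its values were seen, as are the other genes so marked below. This HMG-box factor of progenitor cells measured 0, 79.0, 236 and 201 CPM against 1.99, 10.7, 9.56 and 5.24 CPM. It was high in 3 libraries and had 0 UMIs in LG252 replicate 1. The log2 difference was 3.38 ± 0.42 (edgeR adjusted p = 6.77e-13), and between 2.97 and 3.90 with 1 library left out. A UMI of SOX11 was found in 38.3% of the selected cells, 3.80% of the other epithelial cells and 0.0874% of immune cells. Such shares, here and elsewhere, pool libraries that gave unlike numbers of cells to each set. Those of SOX11 and ROR2 are given without thinning to an equal depth. ASCL4, a basic helix-loop-helix factor, also named after its values were seen, was detected in the selected cells of LG255 alone, at 279 and 352 CPM in 3 and 4 cells, and had 0 UMIs in those of LG252.

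SOX2, a factor of the dental lamina's progenitor cells in reptiles and mammals, was not called. It measured 266, 229, 21.4 and 12.6 CPM in the selected cells and 240, 169, 122 and 97.5 CPM in the other epithelial cells, a log2 difference of -0.77 ± 0.35 (edgeR adjusted p = 0.315). The selected cells of LG252 were above the other epithelial cells and those of LG255 below them. That contrast differed between the animals by a log2 of 3.66 ± 0.81 (edgeR interaction adjusted p = 0.0012). TP63, SOX9, RUNX1, RUNX2, TBX1 and BCL11B, further factors of epithelial or tooth progenitors, did not pass, with log2 differences between -0.77 and 0.46.

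**Figure D3:**
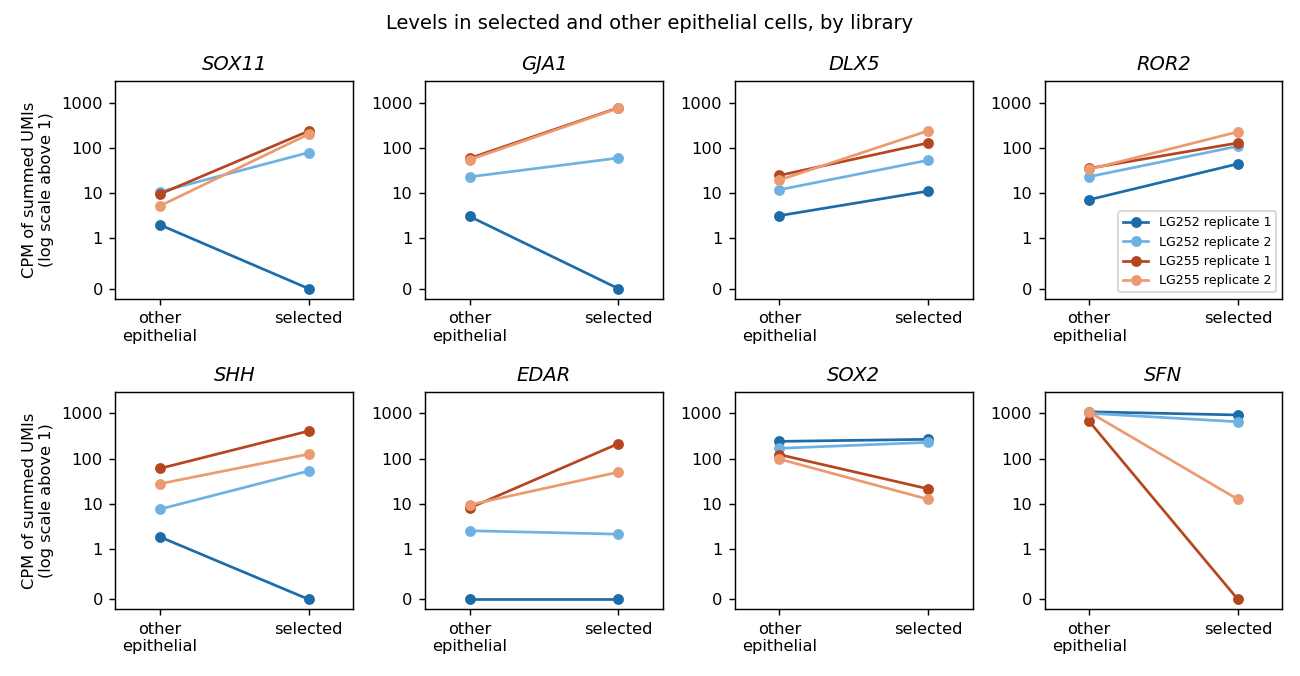
CPM of summed UMIs (logarithmic above 1 and linear below) for 8 genes in the other epithelial cells and the selected cells of each library, 1 line per library. DLX5 and ROR2 rise in all 4 libraries, in LG252 replicate 1 with 1 and 4 UMIs from 1 cell each. SOX11, GJA1 and SHH rise in 3 and are 0 in LG252 replicate 1, and SOX2 and SFN drop steeply in the 2 LG255 libraries.

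Among hedgehog genes, 1 of 11 tested was higher, against 0.487% of all genes, the ligand SHH, which is made by the dental lamina and enamel knots of other vertebrates. It measured 0, 53.4, 407 and 126 CPM in the selected cells and 1.85, 7.63, 60.5 and 27.8 CPM in the other epithelial cells. It was higher in 3 of 4 libraries and absent from the UMIs of LG252 replicate 1. The log2 difference was 1.93 ± 0.40 (edgeR adjusted p = 0.000221), and it passed with each library left out. Its 54 UMIs came from 10 of the 60 cells, with 15 in 1 cell. PTCH1, the hedgehog receptor and a target of the pathway, measured 22.2, 49.1, 300.05 and 176 CPM against 31.9, 32.1, 137 and 78.5 CPM and was not called (log2 0.23 ± 0.34, edgeR adjusted p = 0.887). GLI1, another target, had 0 UMIs in the selected cells. Limma voom called 2 of the 11 hedgehog genes higher and 0 lower, against 191 higher among all 10889 genes.

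In the BMP, FGF and EDA lists, 1 of 25 tested genes was higher, against 0.487% of all genes, EDAR, the receptor of ectodysplasin, whose loss disturbs teeth and skin appendages in mammals. It measured 0, 2.14, 214 and 50.3 CPM against 0, 2.54, 8.11 and 9.51 CPM, with a log2 difference of 2.25 ± 0.60 (edgeR adjusted p = 0.0121). It was above the other epithelial cells in the LG255 libraries alone among the 4, and the call was lost when either was left out. The test of a difference between the animals did not pass (log2 -3.18 ± 1.68, edgeR interaction adjusted p = 0.653). EDA, the ligand, was not called (log2 0.38 ± 0.43, edgeR adjusted p = 0.82). SOSTDC1, a secreted BMP and WNT antagonist that limits tooth number in mice, measured 66.5, 158, 450.1 and 968 CPM against 81.9, 79.4, 109 and 175 CPM. It was higher in 3 of 4 libraries but did not pass (log2 0.90 ± 0.32, edgeR adjusted p = 0.125). With edgeR, BMP2, BMP4, BMP7, FST and FGFR2 did not pass either. Limma voom called 3 of the 25 genes of these lists higher and 0 lower, against 191 higher among all 10889 genes.

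None of the 19 tested genes of the WNT and NOTCH lists was called by edgeR or limma voom. Their median was -0.06 on the log2 scale. An unadjusted edgeR p under 0.05 was found for 5 of the 19, against 1344 of all 10889 genes. WNT10A, whose loss causes missing teeth in humans, measured 55.4, 27.8, 21.4 and 75.4 CPM against 35.8, 36.6, 29.0 and 16.3 CPM (log2 0.03 ± 0.45, edgeR adjusted p = 0.989). ROR2, a receptor of WNT5A outside these lists, measured 44.3, 109, 129 and 226 CPM against 7.15, 23.1, 35.3 and 33.5 CPM. It was higher in 4 of 4 libraries, with a log2 difference of 1.85 ± 0.38 (edgeR adjusted p = 0.00015). In LG252 replicate 1 the value of ROR2 rested on 4 UMIs in 1 cell. A UMI of ROR2 was found in 60% of the selected and 11.8% of the other epithelial cells.

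The following 3 genes were also named after their values were seen and stand for no group. Of WNT inhibitors on the list, SFRP1 and DKK3 were tested and not called (edgeR adjusted p = 0.37 and 0.801). DKK4, a secreted WNT inhibitor, measured 0, 6.41, 129 and 75.4 CPM against 0.132, 0.509, 0.579 and 2.07 CPM, but its 15 UMIs lay in 4 cells. TRABD2B, known as TIKI2, which cleaves WNT proteins, measured 0, 38.4, 2700.4 and 365 CPM against 1.72, 10.2, 86.3 and 52.9 CPM (log2 2.61 ± 0.39, edgeR adjusted p = 6.14e-09). KREMEN2, a receptor that binds DKK proteins, measured 33.3, 59.8, 0 and 113 CPM against 9.41, 14.9, 10.7 and 4.39 CPM (log2 2.03 ± 0.45, edgeR adjusted p = 0.00077). Its value in LG255 replicate 2 came from 9 UMIs in 1 cell, and it lost its call without that library. Each was higher in 3 of the 4 libraries, DKK4 and TRABD2B with 0 UMIs in LG252 replicate 1 and KREMEN2 with 0 in LG255 replicate 1.

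GJA1, the gap junction protein connexin 43, named after its values were seen, measured 0, 59.8, 772 and 754 CPM in the selected cells and 3.05, 22.9, 59.1 and 54.7 CPM in the other epithelial cells. Both LG255 libraries were far above both LG252 libraries. The log2 difference of 2.29 ± 0.34 (edgeR adjusted p = 1.54e-08) passed with each library left out. SLIT2, a secreted guidance protein named in the same way, measured 22.2, 269, 129 and 390 CPM against 34.4, 75.5, 66.3 and 63.0 CPM. Its log2 difference of 1.09 ± 0.34 (edgeR adjusted p = 0.0459) lost its call without LG252 replicate 2 or LG255 replicate 2. C1QTNF12, a secreted protein of the C1q family, measured 0, 57.7, 0 and 88.0 CPM against 0.265, 6.10, 7.24 and 5.36 CPM, and lost its call without LG252 replicate 2.

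Genes of smallest adjusted p that were higher in 4 of 4 libraries included DLX5, NOVA1, ROR2, TXNRD3, SUSD4, SH3RF3, CAMSAP2, PRDX2 and MPPED1. Of these, 2 (DLX5 and ROR2) kept their calls with each library left out in turn. NOVA1, a regulator of RNA splicing, measured 33.3, 14.9, 150 and 163 CPM against 1.99, 7.97, 15.1 and 10.4 CPM (log2 2.32 ± 0.45, edgeR adjusted p = 4.92e-05). PRDX2, a peroxidase that removes hydrogen peroxide, measured 88.7, 209, 579 and 528 CPM against 83.9, 95, 133 and 86.3 CPM (log2 1.04 ± 0.32, edgeR adjusted p = 0.0414). The log2 differences of TXNRD3, SUSD4, SH3RF3, CAMSAP2 and MPPED1 lay between 1.44 and 2.30. TXNRD3 is a thioredoxin reductase and CAMSAP2 a protein that binds microtubule ends.

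The genes that were lower in the selected cells were led by C18H15orf48 among those with a symbol. It measured 0, 113, 0 and 0 CPM in the selected cells and 278, 423, 318 and 860 CPM in the other epithelial cells (log2 -4.08 ± 0.44, edgeR adjusted p = 1.98e-17). ALDH1A1, an enzyme that makes retinoic acid, measured 77.6, 74.7, 0 and 0 CPM against 415, 253, 343 and 494 CPM (log2 -3.30 ± 0.40, edgeR adjusted p = 1.32e-13). Both were lower in 4 of 4 libraries, which the rule for naming required, with no overlap between the cell sets. MAL, a membrane protein of apical transport, had 0 UMIs among the 684658 UMIs of the selected cells and 34.6 CPM over the other epithelial cells. With the libraries pooled, MAL was at least 7.90-fold lower against a floor of 3 UMIs over all selected cells. Most UMIs of the selected cells came from LG252 replicate 2, so this bound mixes libraries in unlike shares and is not one within each library.

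The other named genes that were lower in 4 of 4 libraries were PLAC8, PDZK1IP1, SFN, TSPO, CKMT1A, PAQR5 and NQO1, with log2 differences between -4.33 and -1.97. All 10 named lower genes kept their calls with each library left out. TSPO is an outer mitochondrial membrane protein, CKMT1A a mitochondrial creatine kinase and NQO1 a quinone reductase. Of the 235 lower genes, 104 were loci without a gene symbol, and 25 had 0 UMIs in all selected cells.

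Oral differentiation genes outside the limits were lower in 3 of 5 tested, TGM1, PPL and SCEL, against 2.16% of all genes, with a median of -1.39 on the log2 scale. These genes encode parts of the cornified layer of surface epithelium. SCEL measured 22.2, 44.8, 21.4 and 25.1 CPM against 80.7, 90, 105 and 125 CPM, with no overlap between the sets (log2 -1.93 ± 0.40, edgeR adjusted p = 0.000249). The comparison set included cells over the limit on MUC22, TGM4 and MALL. Without LG252 replicate 1 the count was 1, without LG252 replicate 2 it was 2, limma voom called 1, and in thinned cells 0 were called. When the comparison set was kept to the same upper limits, SCEL alone of the 3 was called, so 2 of the 3 calls were made only against a set that the limits did not bind.

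Of the 10 tested epithelial junction genes, 2 were lower, against 2.16% of all genes. The count was 4 lower without LG252 replicate 2, and limma voom called 1 higher and 1 lower. EPCAM, an adhesion molecule, measured 488, 391, 107 and 289 CPM against 419, 565, 467 and 469 CPM (log2 -1.14 ± 0.34, edgeR adjusted p = 0.0329). It was above the other epithelial cells in LG252 replicate 1 and below them in the other 3 libraries, and it lost its call without either LG255 library. CLDN7, a claudin of tight junctions, measured 366, 192, 0 and 0 CPM against 391, 442, 200 and 232 CPM (log2 -1.91 ± 0.37, edgeR adjusted p = 4.36e-05).

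Cycling genes had a median log2 difference of 0.54, and 20 of 21 tested genes lay above 0. However, none was called by edgeR or limma voom. An unadjusted edgeR p under 0.05 was found for 2 of the 21, against 1344 of all 10889 genes. The 22 measured genes summed to 1541, 557, 793 and 1559 CPM in the selected cells, against 635, 537, 520 and 420 CPM. The selected cells were above in 4 of 4 libraries, in LG252 replicate 2 by little. After thinning to 2000 UMIs, at least 2 UMIs of cycling genes were found in 33.3% (2 of 6), 23.1% (9 of 39), 60% (3 of 5) and 30.0% (3 of 10) of the selected cells. The shares in the other epithelial cells were 21.3, 16.6, 13.5 and 12.9%, against exact 95% intervals of the selected cells of 4.33 to 77.7%, 11.1 to 39.3%, 14.7 to 94.7% and 6.67 to 65.2%. In LG255 replicate 1 alone the other epithelial cells lay outside the interval, which rests on 5 cells. Unthinned, the shares were 83.3, 64.1, 80.0 and 40.0% against 65.2, 48.3, 23.2 and 26.1%.

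**Figure D4:**
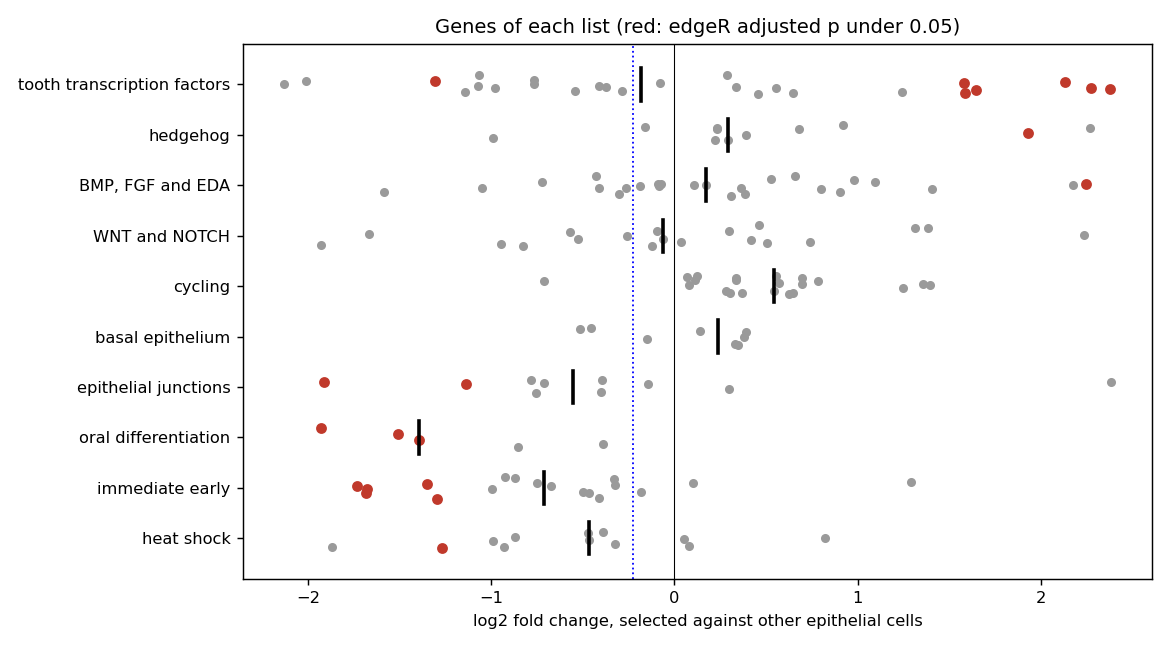
Log2 fold change of each tested gene (points) in the selected against the other epithelial cells, by gene list, with the list's median as a black bar and the median of all genes as a dotted line. Genes with an edgeR adjusted p under 0.05 are red; 6 tooth transcription factors lie to the right, and the 3 called oral differentiation genes lie to the left.

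The selected cells of the 2 animals were compared with each other to see how alike they were. The planned minimum of 10 cells per library left 1 library per animal, so libraries with at least 5 cells were used, a minimum chosen after seeing the counts. In this fit 322 of 1082 tested genes (29.8%) were called, 199 higher (18.4%) and 123 lower (11.4%) in LG252. Since LG255 replicate 1 entered with 5 cells, the number of calls without it, 131, is given beside these. All 12 tested immediate early genes, which respond within minutes to stress or growth signals, were higher in LG252, with a median log2 difference of 3.94 against -0.00069 for all genes. Of 7 tested heat shock genes, 5 were higher in LG252. The direction of these differences was not particular to the selected cells. In the other epithelial cells, by library, the heat shock list summed to 15678, 11333, 1883 and 1803 CPM. The immediate early list summed to 9788, 7862, 3218 and 3461 CPM there. In the selected cells it summed to 9501, 6445, 1114 and 792 CPM, a wider gap between the animals.

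The named genes higher in LG252 included JUND, HSPB6 and SFN. JUND, an AP-1 subunit, measured 1663 and 1377 CPM in LG252 and 0 and 12.6 CPM in LG255 (log2 7.59 ± 0.61, edgeR adjusted p = 0.00089). Its values in the selected cells of LG255 lay near 0, so the size of this difference is uncertain. JUND was also 1674 and 1242 CPM in the other epithelial cells of LG252 and 15.4 and 10.1 CPM in those of LG255. HSPA2, of the heat shock protein 70 family, followed the same order, with 11142 and 5292 CPM against 107 and 277 CPM (log2 5.44 ± 0.49, edgeR adjusted p = 0.00141). DNAJA4, BAG3, ELF3, PTGS2, SDC4 and ATP5MG were the other named genes higher in LG252.

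The named genes higher in LG255 were S100A10, ASCL4, KRT18, MFAP2, GJA1, DENND4A, NOVA1, CLU, SRSF5 and TENM4. KRT18, a keratin of simple epithelium, measured 879 and 1987 CPM in LG255 and 22.2 and 68.3 CPM in LG252 (log2 -4.55 ± 0.61, edgeR adjusted p = 0.00524). S100A10, a calcium-binding family member, measured 8123 and 7104 CPM in LG255 and 1341 and 1634 CPM in LG252 (log2 -2.19 ± 0.22, edgeR adjusted p = 0.00206). In both genes the animals did not overlap, which the rule for naming required.

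Few members of the tooth lists were high enough to be tested between the animals. Over all genes of this fit, 18.4% were called higher in LG252 and 11.4% higher in LG255. The list counts below are small and are to be read against these shares. Of 9 tooth transcription factors, SOX2, RUNX1, TRPS1, KLF4 and KLF5 were higher in LG252, with log2 differences of 1.84 to 5.62, and DLX5 was higher in LG255 (log2 of LG252 minus LG255 -1.97 ± 0.58, edgeR adjusted p = 0.0411). Of 4 hedgehog genes, BOC, a hedgehog co-receptor, was higher in LG252 (2.30 ± 0.47, edgeR adjusted p = 0.0128) and PTCH1 in LG255 (-2.23 ± 0.50, edgeR adjusted p = 0.0163). Of 5 genes of the BMP, FGF and EDA lists, ID1, a target of BMP signals, was higher in LG252 (4.79 ± 0.85, edgeR adjusted p = 0.00796) and SOSTDC1 in LG255 (-2.36 ± 0.53, edgeR adjusted p = 0.0168). Of 4 basal genes 3 were higher in LG252 and 1 in LG255 (COL17A1, LAMA3 and ITGA6 against DST), and of 7 junction genes CLDN1 and CLDN7 were higher in LG252. Levels in the other epithelial cells are given above for SOX2, DLX5, PTCH1, SOSTDC1, COL17A1 and CLDN7. All of these had the same order of animals there, so that order was not particular to the selected cells. Of the genes named in this paragraph, the interaction described below called SOX2, KLF4, KLF5, LAMA3 and CLDN7 alone.

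Whether the selected cells departed from the other epithelial cells by the same amount in each animal was tested as an interaction. It called 136 genes (1.25%), of which 131 (1.20%) had the higher contrast in LG252, with a median of 0.53 over all genes. SFN, the 14-3-3 sigma protein of stratified epithelium, measured 920.2 and 651 CPM in the selected cells of LG252 and 0 and 12.6 CPM in those of LG255. In the other epithelial cells it was 1082, 1003, 667 and 1064 CPM, so LG255 alone showed the large drop. The contrast differed by a log2 of 7.02 ± 0.68 (edgeR interaction adjusted p = 1.09e-21). The selected cells of LG255 held 0 UMIs of SFN in replicate 1 and 1 UMI in replicate 2, so the size of this difference is uncertain. ADIRF measured 3692, 831, 0 and 75.4 CPM in the selected cells and 3104, 3441, 3047 and 4420 CPM in the other epithelial cells. In ADIRF, LG252 replicate 1 did not fall, LG252 replicate 2 fell in part, and both LG255 libraries were near 0 (log2 of the difference 6.12 ± 0.43, edgeR interaction adjusted p = 4.64e-43). The prior degrees of freedom of the interaction fit were infinite, so its p-values and SEs lean on a spread pooled over genes.

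Immediate early genes were among those that differed in this way. Over both animals 5 of 18 tested were lower in the selected cells, FOS, JUNB, EGR1, ATF3 and DUSP1, against 2.16% of all genes, and the same 5 were called in the interaction. FOS, a subunit of AP-1, measured 1408, 538, 214 and 163 CPM in the selected cells and 1195, 943, 854 and 1031 CPM in the other epithelial cells. It was lower in 3 of 4 libraries and higher in LG252 replicate 1 (log2 -1.68 ± 0.35, edgeR adjusted p = 0.000249), and it lost its call without LG255 replicate 2. The 20 genes of the list summed to 9501, 6445, 1114 and 792 CPM against 9788, 7862, 3218 and 3461 CPM. Of 12 heat shock genes, 1 was lower, HSPA2, against 2.16% of all genes. Of 2 tested immune genes 1 was lower, CD74, and of 3 tested mesenchymal genes 1 was lower, COL3A1, while the other 2 lay above 0 and the median of the 3 was 0.50 on the log2 scale. Neither CD74 nor COL3A1 was called without LG252 replicate 1. COL3A1 was also not called by limma voom or without LG252 replicate 2 or LG255 replicate 2. The limits capped 4 mesenchymal genes in the selected cells but not in the comparison set. With the comparison set kept to the same upper limits, 0 of 2 tested mesenchymal genes were lower.

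The selected cells were also described by whether they carried SP6 or DLX3. This applied to 30 of the 60 cells, 3, 16, 4 and 7 by library, and the other 30 were selected through IRX1, ISL1 and FOXI3 alone. Values are given by library because 23 of those 30 came from LG252 replicate 2, and no test was made. In that library SOX11 measured 132 CPM in the 16 cells with SP6 or DLX3 and 53.8 CPM in the 23 without. TRABD2B measured 98.7 and 9.49 CPM, GJA1 118 and 31.6 CPM, and SHH 98.7 and 31.6 CPM. A UMI of SOX11 was found in 5 and 7 of these cells, and of TRABD2B in 3 and 3. For GJA1 the cells were 3 and 5, and for SHH 2 and 2, so these gaps rest on few cells. DLX2 measured 132 and 75.9 CPM. The order was the other way for DLX5, at 32.9 and 63.2 CPM, IRX2, at 52.6 and 101 CPM, and SLIT2, at 197 and 304 CPM. ROR2 was alike, at 105 and 111 CPM. In LG255, EDAR was found in 7 of the 11 cells with SP6 or DLX3 and in 1 of the 4 without, and GJA1 in 11 and 1 of the same cells.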

How the data were processed

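The authors deposited UMI counts per gene and cell barcode as whole numbers without normalization, made with Cell Ranger 7.1.0 per the file headers (2.1.0 per the submitters' processing notes) on the assembly MPM_Emac_v1.0. How cells were called, whether intronic reads were counted and which annotation release was used are not given in the sources used here. The files held 24025 features, of which 23671 were matched to the RefSeq gene table of the same assembly for coordinates. Library totals ran from 4535439 to 20754804 UMIs. Reads of genes with near-identical sequence may have been divided between them, and neighbouring genes with overlapping transcripts may share reads.

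Counts were summed per library and cell set and tested with edgeR 4.0.16 (quasi-likelihood, TMM, filterByExpr, Benjamini-Hochberg adjustment at 0.05), after the code was tested on simulated data. Standard errors are the absolute log2 difference over the square root of F. The 14 genes that select the cells were left out of all tests. The comparison of cell sets used the library as a block, since both sets come from the same libraries; the animals were compared without a block, and their contrasts by an interaction term. Intervals of shares are exact binomial (Clopper-Pearson, 95%) and, like the floor of 3 UMIs, cover counting error only. DESeq2 1.42.0, limma 3.58.1, Scrublet in scanpy 1.11.5 (the highest scores called at 0.8% per 1000 cells), thinning, a limit of 20% mitochondrial UMIs, stricter cell limits and leaving out each library were alternatives.

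Genes are named if they are called members of the gene lists, or among the 10 of smallest adjusted p in each direction with a gene symbol, an absolute log2 difference of at least 1, at least 10 CPM in the higher set and the same direction in every library (between animals, no overlap of libraries). The cells, the gene lists and the tests were chosen with earlier results of these data known. The planned comparison with cells rich in AMELX had too few cells. A marker of dental epithelium and some of the called genes are not reported here.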

Additional observations from a re-analysis of the deposited data

Results flagged for a closer look

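The contrast between selected and other epithelial cells differed between the animals in 136 genes by edgeR's interaction test, and the named genes among them are given here as the contrast in LG252 minus that in LG255, in log2. The contrast was higher in LG252 for ADIRF at 6.12, SFN at 7.02, CSTA at 6.08, ANXA1 at 2.47, KLF5 at 4.72 and EPCAM at 1.60. SOX2 differed by 3.66, TSPO by 4.50 and TMSB15C by 1.68. The junction genes DSP and JUP differed by 1.56 and 1.81, KLF4 by 4.16, NOTCH1 by 3.49 and SDC4 by 4.00. The same held for IER3 at 5.39, FOS at 2.65, JUNB at 2.80, EGR1 at 2.85, DUSP1 at 2.19 and HSPA2 at 1.88.

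The fitted values of ALDH1A1 (11.23), ATF3 (11.34), C18H15orf48 (11.43), CLDN7 (11.49), ELF3 (11.06), HSPB6 (11.82), LAMA3 (11.85) and PLAC8 (10.70) were set against 0 UMIs in both LG255 sums of selected cells. Such values depend on the prior count of the fit and give no size of the difference. KRT18 (-2.89), S100A10 (-0.99) and SLC20A1 (-1.68) had the higher contrast in LG255, where SLC20A1, a phosphate transporter, measured 321 and 528 CPM in the selected cells and 85.2 and 66.4 CPM in the other epithelial cells. The cause of these differences was not tested, and the animal and its digestion cannot be told apart.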

How the results depend on the processing

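The sums of selected cells held 46659 to 468266 UMIs. The prior degrees of freedom of the edgeR fits of cell sets and of the interaction were infinite, so their p-values lean on a spread pooled over genes. For the comparison of cell sets (288 genes called), DESeq2 called 92, the fit with no library block 2 and the fit of thinned cells 103. Leaving out 1 library gave 101 to 365, with 101 without LG255 replicate 2. The size factors of DESeq2, no filter on low counts, limma voom and the other limits on cells stayed within 1.5 times the count. A like count did not mean the same genes, since limma voom shared 181 of the 288 calls. Between the animals (322 called), DESeq2 called 178 and the thinned cells 39, and leaving out 1 library gave 131 to 319; the replicate block called 230, although same-numbered libraries of the animals did not deviate together (correlation -0.0626), so the pairing is by number only. For the interaction (136 called), DESeq2 size factors gave 81, DESeq2 36, no filter 65, no library block 20 and thinned cells 7. Leaving out 1 library gave 50 to 135 for it. The difference in share reversed to -0.061 percentage points without LG252 replicate 2, and leaving out 1 library gave -0.061 to 4.80. Of 54 genes followed in the comparison of cell sets, 0 reversed; 537 values stayed on the same side of the threshold, 179 lost the call and 1 gained it, SOX2 without LG252 replicate 2 (-1.47). Cells with 5 or more marker UMIs could not be fitted, since 1 library held 5 of them or more. The comparison with cells rich in AMELX and that of the animals at 10 cells per library were not run. Except where fewer cells or genes entered, the cause was not tested.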

Other observations

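CLU and FSTL3 were called higher in the selected cells and are named after their values were seen. CLU, the secreted chaperone clusterin, measured 0, 12.8, 321 and 138 CPM against 1.99, 8.31, 18.5 and 11.5 CPM (log2 2.19 ± 0.45, edgeR adjusted p = 0.00015). FSTL3, a secreted antagonist of activin, measured 0, 36.3, 42.9 and 239 CPM against 1.19, 12.5, 18.5 and 21.8 CPM (log2 1.70 ± 0.45, edgeR adjusted p = 0.00895). Both were higher in 3 of 4 libraries and had 0 UMIs in the selected cells of LG252 replicate 1. CLU lost its call without LG255 replicate 1 and FSTL3 without LG255 replicate 2.

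PAX9, AGR2 and AGR3 were called lower in the selected cells and are named after their values were seen. PAX9, a paired box factor, had 0 UMIs in the selected cells and 10.2 CPM over the other epithelial cells. Against a floor of 3 UMIs over all selected cells, with the libraries pooled, PAX9 was at least 2.32-fold lower. AGR2 and AGR3, genes of secretory epithelium, also had 0 UMIs in the selected cells and 20.3 and 20.1 CPM over the other epithelial cells. Against the same floor they were at least 4.64-fold and 4.59-fold lower. The comparison set of these bounds was not kept to the upper limits of the selected cells.

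Of the 5 cells with at least 3 UMIs of AMELX, 1 held 3746 of them, with 4 UMIs over 2 of the 5 markers and 29 UMIs of the 4 collagen and proteoglycan genes. It held 2 UMIs of LOC129339097 and so fell outside the epithelial limits.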
